A study of Mus musculus with 4 samples.

Results

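The genes of 10 transcription factors that direct the oligodendrocyte lineage are described here: Olig1, Olig2, Sox10, Myrf, Nkx2-2, Nkx6-2, St18, Zfp488, Zfp536 and Tcf7l2. They were taken by symbol from a fixed list, and all 10 were found among the 55401 genes of the deposited tables. RNA came from mouse optic nerves, with 2 libraries labelled Dor WT and 2 labelled Dor cKO, a conditional knockout of Dor. The labels state no age, sex, strain, Cre driver or number of animals per library. Nothing states that the libraries of a group came from separate animals, so p-values measure only the spread between these samples, which may be technical. The series title places the question in the metabolism of mature oligodendrocytes and in myelination.

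Oligodendrocytes make the myelin of the optic nerve, and they arise from precursors through a chain of transcription factors. Olig2, with its close relative Olig1, establishes the lineage, in which Sox10 is expressed throughout. Nkx2-2, Zfp488 and Tcf7l2 act around the step at which precursors leave the cell cycle and begin to differentiate. Myrf, together with Sox10, then switches on the genes of myelin, while Nkx6-2 is known for its part in the mature cell and its paranodes.

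Trp53inp2, a gene known as Dor, stood at 138 and 134 counts per 1000000 (CPM) in the Dor WT libraries against 105 and 107 in the cKO libraries, a log2 fold change of -0.36 (standard error, SE, 0.04, edgeR adjusted p = 2.73e-08). This is a whole-gene value from whole tissue and does not by itself check a deletion in some cells or exons. Library totals ran from 17263830 to 21595832 expected counts, and mitochondrial genes took 4.7% to 4.75% of counts in Dor WT and 4.96% to 4.97% in Dor cKO. The mean fragment length was 260 bases in both Dor WT libraries and 245 in both Dor cKO libraries. Names of the Dor WT tables hold an age-like tag that those of Dor cKO lack, so a difference in age or batch cannot be told apart from genotype. Myelin genes summed to between 25838 and 26054 transcripts per 1000000 (TPM) in Dor WT and astrocyte markers to between 7544 and 7559, so the defining genes of nerve glia were present. Of 13 pituitary markers, 7 could be tested, 6 of these fell and 0 rose. The 13 summed to 96.5 and 90.5 TPM in Dor WT and to 5.06 and 4.29 in Dor cKO, and Cga, Fshb, Prl, Pou1f1, Tbx19 and Lhx3 were at 0 in both Dor cKO libraries. The part of such tissue in the results below was not tested.

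All 10 lineage factor genes were lower in Dor cKO, by between 1.2-fold for Zfp536 and 2.52-fold for Olig1. Olig1, St18 and Zfp488 lay at a log2 fold change of -1 or below, which 1.87% of the 16751 tested genes did. Sox10, Myrf, Nkx2-2 and Nkx6-2 fell by 0.76 to 0.88, Olig2 by 0.49, and Tcf7l2 and Zfp536 by 0.30 and 0.26. All 10 were called lower and 0 higher by edgeR's quasi-likelihood test at an adjusted p under 0.05, a call that 13.4% of all tested genes received. The median log2 fold change was -0.82 over the 10 genes and -0.0036 over all tested genes. In bulk tissue, fewer cells of a type and less RNA per cell cannot be told apart. Of the 10, DESeq2 called 8 lower (8.24% of all genes), limma 7 on log2(TPM + 1) (4.31%) and on log2(TPM + 0.1) (4.38%), and edgeR with a coefficient of variation preset at 0.1 called 8 (5.32%). Without Dor WT replicate 1 the count was 9 (11.4% of all genes), as it was without Dor cKO replicate 1 (9.61%). The calls for Zfp536, Tcf7l2 and St18 did not hold under every alternative, as given with those genes below.

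**Figure D1:**
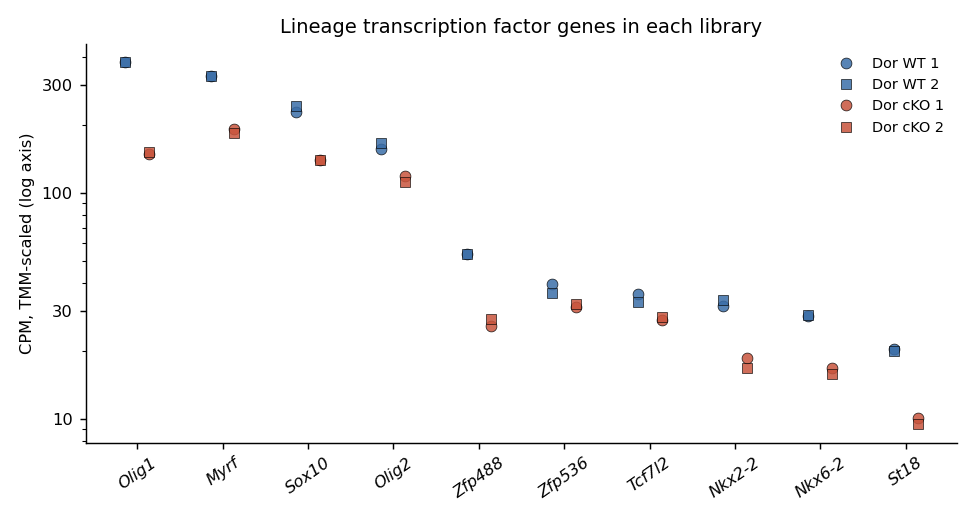
Level of each of the 10 genes in each library in CPM, on a log axis, with 2 Dor WT libraries (blue) and 2 Dor cKO libraries (red), circles for replicate 1 and squares for replicate 2. For each gene both Dor cKO points lie below both Dor WT points, with the widest gap for Olig1 (379 and 380 against 150 and 151) and narrow ones for Zfp536 and Tcf7l2.

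The groups did not overlap for any of the 10 genes, all of which lay lower in Dor cKO. With so few libraries this is common, since 30.5% of all tested genes were lower without overlap. The SD within a group was at most 6.88% of its mean for each of the 10 genes. Counts behind the values ran from 196 for St18 to 8255 for Olig1 in a library.

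Olig1 and Olig2 encode basic helix-loop-helix factors and lie next to each other on chromosome 16 of GRCm38, 41095 bases apart. Olig1 (ENSMUSG00000046160.6; 91269772 to 91271933) is known for its role in maturation and in repair of myelin. Its level was 379 and 380 CPM in the Dor WT libraries against 150 and 151 CPM in the cKO libraries. It fell by 1.33 (SE 0.03, edgeR adjusted p = 1.04e-24), and 0.913% of tested genes had a lower log2 fold change. Olig2 (ENSMUSG00000039830.9; 91225457 to 91228677), which founds the lineage, was 157 and 166 CPM in the Dor WT libraries against 119 and 111 CPM in the cKO libraries. It fell by 0.49 (SE 0.04, adjusted p = 4.42e-11), or 1.41-fold. The neighbours thus fell by different amounts: the log2 ratio of Olig1 to Olig2 in CPM was 1.27 and 1.2 in the Dor WT libraries against 0.33 and 0.44 in the cKO libraries. The difference of -0.84 compares with a largest gap of 0.11 between replicates. An exact permutation test of 2 libraries against 2 cannot go below p = 0.33, and ratios between genes are given here as descriptions. In TPM, which accounts for length, Olig1 stood 2.88 and 2.74 times above Olig2 in Dor WT and 1.50 and 1.62 times above it in Dor cKO.

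The coding sequences of both genes are shown at their most alike stretch, since shared reads could blur their values. Without gaps, the closest match was 91 bases long with 76 identical, or 83.5%, and its longest identical run was 17 bases. Capitals mark the bases that differ between the GENCODE M21 transcripts, which lie at chr16:91270148-91270238 for Olig1 and chr16:91226713-91226803 for Olig2, both on the plus strand.
Olig1: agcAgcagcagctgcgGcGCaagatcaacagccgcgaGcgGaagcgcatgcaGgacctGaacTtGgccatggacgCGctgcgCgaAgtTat
Olig2: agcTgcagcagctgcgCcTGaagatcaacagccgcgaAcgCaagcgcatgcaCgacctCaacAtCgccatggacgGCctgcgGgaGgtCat
In the deposited tables the posterior SD of the count, which measures how much of it rests on ambiguous reads, was 0 for both genes in all 4 libraries. Each gene is listed with 1 transcript, so its length was the same in every library.

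Sox10 (ENSMUSG00000033006.10; chromosome 15, 79154908 to 79165240), an HMG-box factor expressed throughout the lineage, was 229 and 244 CPM in the Dor WT libraries against 140 and 139 CPM in the cKO libraries. It fell by 0.76 (SE 0.03, edgeR adjusted p = 7.67e-17). Myrf (ENSMUSG00000036098.15; chromosome 19, 10208272 to 10240748) encodes a membrane-bound factor that frees itself by cleavage and enters the nucleus to drive myelin genes. Its level was 331 CPM in both Dor WT libraries and 192 and 184 CPM in Dor cKO, a fall of 0.82 (SE 0.03, adjusted p = 2.65e-19). The ratio of Myrf to Sox10 overlapped between the groups, with log2 values of 0.53 and 0.44 in the Dor WT libraries against 0.46 and 0.40 in the cKO libraries. Sox10 is also expressed by Schwann cells and melanocytes. The 7 Schwann cell markers summed to 21.2 to 21.6 TPM in Dor WT and 21.5 to 23.4 in Dor cKO. Of the 5 of them tested, Pou3f1 fell by 0.49 (SE 0.15), a call lost in 7 of 15 alternatives, and 0 rose. The 5 melanocyte markers summed to 6.83 to 7.44 TPM in Dor WT and 5.83 to 5.89 in Dor cKO, and Mitf fell by 0.52 (SE 0.13; call lost with limma), while Tyr was at 0 in all libraries. Sox10 itself stood at 136 and 146 TPM in the Dor WT libraries against 82.9 and 83.1 TPM in the cKO libraries. The part of those cells in its fall was not tested.

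In CPM, the homeobox genes fell by amounts near those of Sox10 and Myrf. Nkx2-2 (ENSMUSG00000027434.11; chromosome 2, 147177546 to 147194243), a repressor that helps to time differentiation, was 31.6 and 33.6 CPM in the Dor WT libraries against 18.5 and 16.8 CPM in the cKO libraries. It fell by 0.88 (SE 0.09, edgeR adjusted p = 4.73e-09). Nkx6-2 (ENSMUSG00000041309.17; chromosome 7, 139579376 to 139582797) was 28.4 and 28.7 CPM in the Dor WT libraries against 16.8 and 15.8 CPM in the cKO libraries, a fall of 0.81 (SE 0.09, adjusted p = 5e-08). Nkx2-2 is also a gene of the ventral hypothalamus. Of 11 hypothalamus markers, 9 were tested, of which 5 fell and 1 rose. Among them Nkx2-1 went from 4.95 and 6.26 CPM to 1.43 and 1.49 CPM, and Npy, a neuropeptide gene, from 15.9 and 13.0 CPM to 2.81 and 3.03 CPM. Agrp went from 1.78 and 2.72 CPM to 0 and 0.193 CPM, and Rax from 2.48 and 2.81 CPM to 0.238 and 0.337 CPM. These 4 calls held in all 15 alternatives. Otp fell by 0.41 (SE 0.12), a call lost in 5 of 15 alternatives. The 1 that rose was Oxt, from 32.0 and 32.7 CPM to 42.2 and 43.0 CPM, by 0.40 (SE 0.07). The Oxt call was lost with a preset coefficient of variation. Agrp, Rax and Avp were named after their values were seen. The summed level of the 11 was 1790 and 1905 TPM in the Dor WT libraries against 1714 and 1788 TPM in the cKO libraries, and Pmch was at 0 in all 4 libraries. Most of that sum was Avp, at 1519 and 1635 TPM in the Dor WT libraries against 1477 and 1545 TPM in the cKO libraries. The sum therefore does not show the falls of Nkx2-1, Npy, Agrp, Rax and Otp. The part of that tissue in the Nkx2-2 value was not tested.

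Opposite-strand genes span parts of both homeobox loci, and no source used here says whether counting used the strand. The antisense gene Nkx2-2os had 41.4 and 53.5 expected counts in the Dor WT libraries against 43.7 and 40.8 in the cKO libraries. Nkx2-2 itself had 549 and 729 expected counts in the former and 389 and 349 in the latter. Inpp5a, which overlaps Nkx6-2, had 46.6 and 40.0 CPM in the Dor WT libraries against 45.3 and 45.2 CPM in the cKO libraries and did not pass the test (log2 fold change 0.07, SE 0.07, adjusted p = 0.528).

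Among the zinc finger genes, St18 and Zfp488 fell by about 2-fold and Zfp536 by much less. Zfp488 (ENSMUSG00000044519.8; chromosome 14, 33967070 to 33978764), whose product is known to act with Olig2 as a repressor, was 53.8 and 53.7 CPM in the Dor WT libraries against 25.8 and 27.8 CPM in the cKO libraries. It fell by 1.00 (SE 0.07, edgeR adjusted p = 2.12e-12). St18 (ENSMUSG00000033740.17; chromosome 1, 6487231 to 6860940), a member of the Myt1 family, was 20.4 and 20.0 CPM in the Dor WT libraries against 10.1 and 9.44 CPM in the cKO libraries, a fall of 1.05 (SE 0.12, adjusted p = 3.12e-08). Zfp536 (ENSMUSG00000043456.17; chromosome 7, 37472135 to 37773641), known as a repressor in neuronal differentiation, was 39.7 and 36.2 CPM in the Dor WT libraries against 31.2 and 32.2 CPM in the cKO libraries. It fell by 0.26 (SE 0.08, adjusted p = 0.00978). That call was lost with DESeq2 (adjusted p = 0.0975), with limma on log2(TPM + 1) (0.17), with a preset coefficient of variation (0.338), without Dor WT replicate 1 (-0.19, 0.103) and without Dor cKO replicate 1 (-0.23, 0.0856), in a range of adjusted p from 0.00309 to 0.338 over all fits.

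Tcf7l2 (ENSMUSG00000024985.20; chromosome 19, 55741820 to 55933654), the HMG-box partner of beta-catenin that is known to peak in newly formed oligodendrocytes, was 35.6 and 33.0 CPM in the Dor WT libraries against 27.4 and 28.2 CPM in the cKO libraries. It fell by 0.30 (SE 0.08, edgeR adjusted p = 0.00412). The call was lost with DESeq2 (adjusted p = 0.0555), with limma on log2(TPM + 1) (0.237) and with a preset coefficient of variation (0.241), in a range of 0.00126 to 0.241 over all fits. Neurons can express Tcf7l2 and Zfp536 as well. The 6 neuron markers summed to 65.2 and 67.5 TPM in the Dor WT libraries against 65.5 and 64.4 TPM in the cKO libraries, and 1 of the 6 fell and 1 rose.

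**Figure D2:**
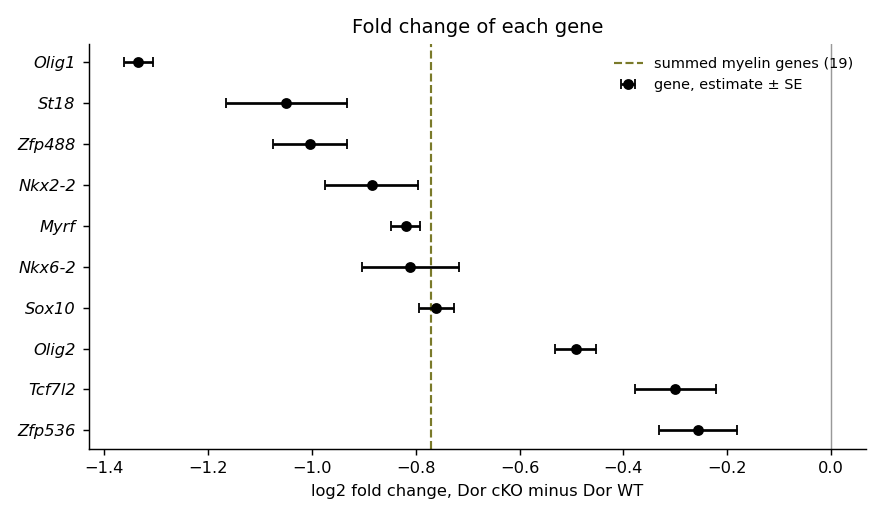
Log2 fold change (Dor cKO minus Dor WT) of each of the 10 genes with its SE from edgeR, and, as a dashed line, the log2 fold change of the summed CPM of 19 myelin genes, -0.77. Sox10, Myrf and Nkx6-2 lie near the line, Olig1, St18 and Zfp488 lie below it, and Olig2, Tcf7l2 and Zfp536 lie between it and 0.

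Order by level changed little. In TPM, Olig1 led in both groups, at a mean of 289 in Dor WT and 113 in Dor cKO, followed by Sox10 at 141 and 83.0. Myrf and Olig2 overlapped in Dor WT, where their libraries held 104 and 104 TPM and 100 and 106 TPM. In Dor cKO they did not overlap, with 61.4 and 57.0 TPM for Myrf and 74.9 and 70.1 TPM for Olig2. Nkx2-2, Nkx6-2 and Tcf7l2 came next, at 47.3, 35.4 and 21.7 TPM in Dor WT and 21.5, 19.2 and 18.7 TPM in Dor cKO, where the values of Nkx6-2 and Tcf7l2 overlapped. Zfp488 stood above Zfp536 in Dor WT, at 19.3 against 16.8 TPM, and below it in Dor cKO, at 9.52 against 13.7 TPM. St18 was last, at 9.03 and 5.03 TPM. Together the 10 genes held 778 and 796 TPM in the Dor WT libraries against 420 and 411 TPM in the cKO libraries. Olig1 supplied 37.1% and 36.4% of that sum in the Dor WT libraries but 26.7% and 27.7% in the cKO libraries.

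**Figure D3:**
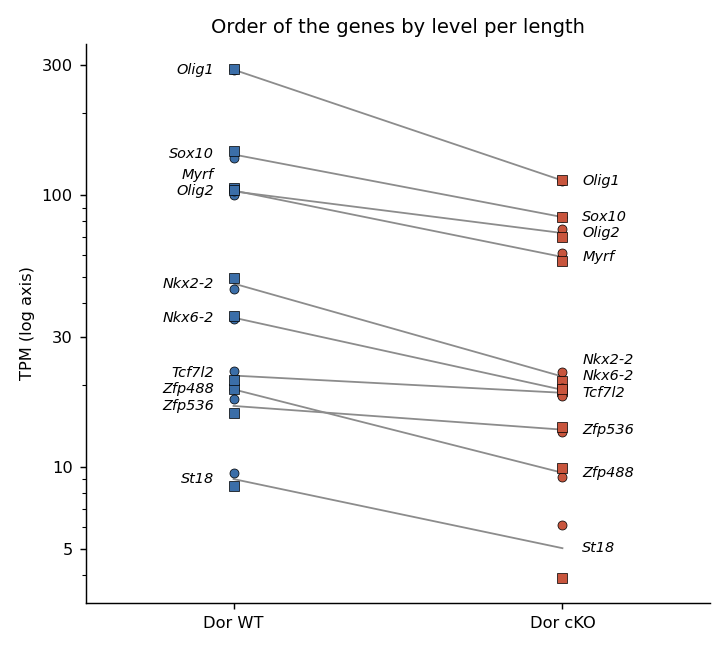
Level of each gene in TPM on a log axis, with points for the 2 libraries of Dor WT (left) and of Dor cKO (right) and lines that join the group means. Lines of Myrf and Olig2 cross, as do those of Zfp488 and Zfp536, and Olig1 is the highest in both groups.

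Each gene was next set against the summed CPM of 19 myelin genes that Sox10 or Myrf are known to drive, to show which factors fell in step with myelin RNA. The sum was 34443 and 34305 CPM in the Dor WT libraries against 20179 and 20123 CPM in the cKO libraries, with Mbp supplying 45.5% to 47.0%. Relative to this sum, Sox10 differed by 0.01 on the log2 scale, Myrf by -0.05, Nkx6-2 by -0.04 and Nkx2-2 by -0.11. These differences were each smaller than the largest gap between replicates, which was 0.10, 0.06, 0.08 and 0.14 in that order. Olig1 was lower relative to myelin by 0.56, St18 by 0.28 and Zfp488 by 0.23, with gaps between replicates of up to 0.02, 0.09 and 0.11. Olig2 was higher relative to myelin by 0.28, Tcf7l2 by 0.47 and Zfp536 by 0.51, with gaps of up to 0.09, 0.11 and 0.12. The groups did not overlap for these 6 genes, nor for Myrf, while they overlapped for Sox10, Nkx6-2 and Nkx2-2. Single genes among the 19 ran from a log2 fold change of -1.53 to 0.38, and each of the 10 factors lay within that range. The ratios thus place each factor against the sum, not against every myelin gene. These ratios are in CPM. With limma on log2(TPM + 1) Nkx2-2 fell by 1.10 and St18 by 0.76, against a median of -0.80 over the 19 myelin genes. The place of both genes relative to myelin RNA thus depends on the measure.

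**Figure D4:**
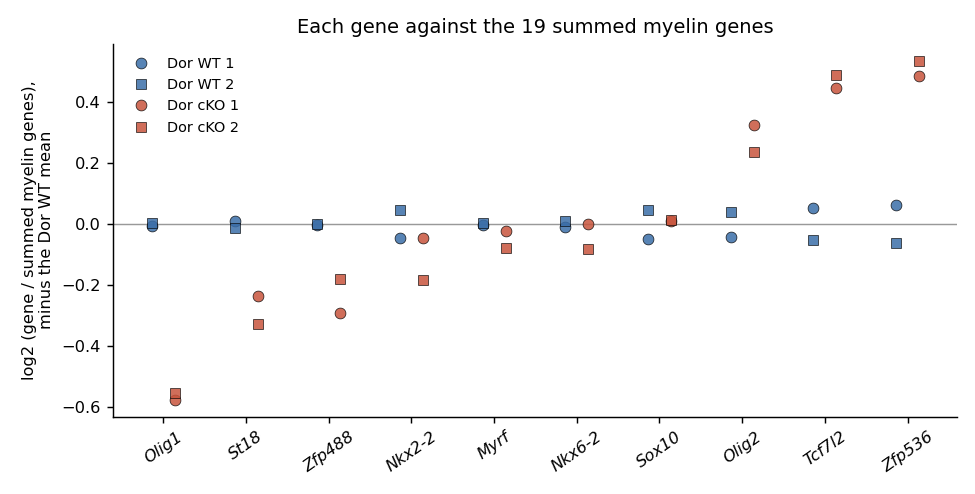
Log2 ratio of each gene to the summed CPM of 19 myelin genes in each library, less the mean of the 2 Dor WT libraries, so that Dor WT lies around 0. Olig1 lies lowest in Dor cKO, Sox10, Nkx6-2 and Myrf lie near 0, and Olig2, Tcf7l2 and Zfp536 lie above it.

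Promoter letters are given for genes from each of these sets, as measured in CPM. Of those shown, Zfp488 fell more than the myelin sum. Nkx6-2 and Nkx2-2 differed from that sum by less than the gap between replicates, and Tcf7l2 fell less than it. RefSeq entries of GRCm38.p6 matched 6 of the 10 genes by symbol. Each line is the 250 bases before the RefSeq start, 5′ to 3′ on the strand of the gene, with matches to the searched motifs in capitals. The motifs were the E-box CANNTG that helix-loop-helix factors bind, ACAAAG or ACAATG for Sox factors, ATCAAAG for Tcf factors and CTGGCAC for Myrf, on both strands, where ATCAAAG and ACAAAG can overlap in part. The windows are chr14:33978765-33979014 (minus strand), chr7:139582798-139583047 (minus), chr2:147186403-147186652 (minus) and chr19:55741560-55741809 (plus).
Zfp488: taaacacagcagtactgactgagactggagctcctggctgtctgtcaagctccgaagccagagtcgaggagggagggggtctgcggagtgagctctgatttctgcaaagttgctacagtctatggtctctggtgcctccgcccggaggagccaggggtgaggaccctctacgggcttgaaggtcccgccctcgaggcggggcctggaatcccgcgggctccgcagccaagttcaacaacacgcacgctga
Nkx6-2: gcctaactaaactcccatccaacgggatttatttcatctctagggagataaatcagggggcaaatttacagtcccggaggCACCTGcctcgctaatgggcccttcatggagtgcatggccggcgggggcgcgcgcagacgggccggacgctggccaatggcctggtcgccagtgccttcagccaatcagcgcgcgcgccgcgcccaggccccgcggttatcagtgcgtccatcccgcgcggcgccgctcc
Nkx2-2: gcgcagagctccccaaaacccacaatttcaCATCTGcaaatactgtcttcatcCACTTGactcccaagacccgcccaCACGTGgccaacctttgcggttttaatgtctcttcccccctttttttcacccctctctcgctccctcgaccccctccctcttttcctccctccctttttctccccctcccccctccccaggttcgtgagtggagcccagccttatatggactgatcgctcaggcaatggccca
Tcf7l2: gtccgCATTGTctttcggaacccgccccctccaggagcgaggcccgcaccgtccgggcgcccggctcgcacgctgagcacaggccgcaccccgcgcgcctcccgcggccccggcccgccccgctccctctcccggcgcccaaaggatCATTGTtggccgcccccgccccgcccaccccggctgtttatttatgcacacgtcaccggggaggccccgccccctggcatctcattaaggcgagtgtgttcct
Nkx2-2 held 3 E-boxes, Nkx6-2 held 1 and Tcf7l2 held 2 Sox matches, while Zfp488 held none of the motifs. A second RefSeq window of Tcf7l2, at chr19:55895071-55895320 and not shown, held 1 Sox match. Of 32851 windows of the same length in the RefSeq table, 66.2% held the E-box, 25.2% a Sox match, 3.21% the Tcf motif and 4.19% the Myrf motif. The Tcf and Myrf motifs were in none of the members' windows.

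RSEM lists for each gene the mean length of its transcripts weighted by their estimated abundance, so a shift in this length between libraries is a shift in the mix of transcripts. Of the 10 genes, 7 have more than 1 transcript in the tables. Nkx2-2 was longer in Dor cKO, at 1274 and 1240 bases in the Dor WT libraries against 1440 and 1413 bases in the cKO libraries, a rise of 13.5%. Its annotated coding transcripts are 1053 and 2120 bases long and its noncoding ones 340 and 378. Tcf7l2, with 22 transcripts, was shorter in Dor cKO, at 2550 and 2558 bases in the Dor WT libraries against 2417 and 2348 bases in the cKO libraries. Nkx6-2 was longer by 2.54%, and Sox10 was shorter, at means of 2688 and 2667 bases, also without overlap. Such shifts were frequent: of 14127 tested genes with more than 1 transcript, 15.2% were longer and 16.8% shorter in Dor cKO without overlap, and 11.5% shifted by at least as much as Nkx2-2. St18 differed within Dor cKO, at 2616 and 3713 bases. Its TPM in those libraries was 6.13 and 3.92, although its CPM was 10.1 and 9.44. With limma on log2(TPM + 1) the St18 call was lost, at -0.76 and an adjusted p of 0.0978, in a range of 5.66e-16 to 0.101 over all fits.

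The myelin genes fell with the lineage factors. Of the 19 fixed genes, all tested, 17 fell and 2 rose, with a median of -0.77. Mbp, whose product compacts the sheath, fell by 0.73 (SE 0.01), and Cnp, an enzyme gene of myelin, by 0.75 (SE 0.01). The exceptions, named after their values were seen, were Ndrg1, a stress-responsive gene that rose by 0.38 (SE 0.03), and Trf, which encodes transferrin and rose by 0.12 (SE 0.03). Both calls were lost with a preset coefficient of variation (adjusted p = 0.078 and 0.722), the highest over the alternatives for either gene. All 8 markers of newly formed oligodendrocytes fell, with a median of -0.67, among them Gpr17 by 1.18 (SE 0.02) and Bcas1 by 1.11 (SE 0.02). Of 10 precursor markers, 8 fell and 0 rose, with a median of -0.48, or 4 with limma on log2(TPM + 1) and 5 with a preset coefficient of variation. Tnr fell by 0.85 (SE 0.02), a call kept in all 15 alternatives, and Vcan by 0.60 (SE 0.03), a call lost with limma. Ptprz1 fell by only 0.07 (SE 0.02), a call lost in 9 of 15 alternatives. Pdgfra, the receptor that marks precursors, was 351 and 337 CPM in the Dor WT libraries against 328 and 327 CPM in the cKO libraries. Its log2 fold change was -0.07 (SE 0.03, adjusted p = 0.044), and the call was lost in 10 of 15 alternatives.

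Other regulators of the lineage were mixed. Of 23 tested transcriptional and chromatin regulators outside the 10 genes, 6 fell and 4 rose, against 13.4% and 14.3% of all tested genes. The other 13 were not called, and the median of the 23 was -0.08. The counts were 2 and 2 with limma on log2(TPM + 1) and also with a preset coefficient of variation. Sox8, the closest relative of Sox10 in this lineage, went from 135 CPM in both Dor WT libraries to 72.4 and 71.6 CPM and fell by 0.91 (SE 0.04, edgeR adjusted p = 3.24e-16). Zeb2, which counters signals that block differentiation, fell by 0.52 (SE 0.03). Klf9, a thyroid hormone responsive gene, rose by 0.27 (SE 0.03), a call lost with limma and with a preset coefficient of variation. Nkx6-1, a relative of Nkx6-2, rose by 0.58 (SE 0.08, adjusted p = 6.42e-07), from 26.7 and 24.8 CPM to 39.0 and 38.0 CPM.

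Family relatives went both ways. Of 13 relatives of the 10 genes, 9 were tested, of which 3 fell and 3 rose, against 13.4% and 14.3% of all tested genes. The counts of the relatives were 2 and 1 with limma on log2(TPM + 1) and 3 and 1 with a preset coefficient of variation. Olig3, Nkx6-3 and Myrfl were at 0 in all libraries. Nkx2-1, given above, was among those that fell. Myt1, the relative of St18, fell by 0.90 (SE 0.11), a call lost with limma, and was named after its value was seen. Sox9, which astrocytes and precursors express, rose by 0.31 (SE 0.06), a call lost with limma and with a preset coefficient of variation. Sox8 and Nkx6-1 stand in this list and in the one before.

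Of 15 tested factors of the precursor state, or that oppose differentiation, 5 rose and 2 fell, against 14.3% and 13.4% of all tested genes. The median of the 15 was 0.04. With a preset coefficient of variation 0 rose and 1 fell, with limma on log2(TPM + 1) 3 rose and 0 fell, and without Dor cKO replicate 1 the counts were 3 and 1. The median was below 0 without Dor WT replicate 1 (-0.06), without Dor cKO replicate 2 (-0.02) and with limma on log2(TPM + 1) (-0.02). Id4, an inhibitor of helix-loop-helix factors such as Olig1 and Olig2, was 350 and 379 CPM in the Dor WT libraries against 458 and 450 CPM in the cKO libraries and rose by 0.32 (SE 0.03, edgeR adjusted p = 1.08e-07). Id1 and Id3, of the same family, rose by 0.36 (SE 0.04) and 0.26 (SE 0.03). Id2, also of that family and named after its value was seen, did not rise (-0.12, SE 0.06, not called). The calls for Id1, Id3 and Id4 were each lost with a preset coefficient of variation of 0.1, at adjusted p values of 0.108, 0.304 and 0.167, and held in the other alternatives. Sox6, named after its value was seen, fell by 0.73 (SE 0.05), a call lost with limma. Astrocytes express Id genes and Sox9 too, and of 7 astrocyte markers 6 rose and 1 fell, with a median of 0.22. Of these, 4 rose with limma on log2(TPM + 1), and 1 rose and 0 fell with a preset coefficient of variation. Their sum was 7544 and 7559 TPM in the Dor WT libraries against 8232 and 8243 TPM in the cKO libraries, and its part in these rises was not tested.

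Of 22 tested genes of the Wnt and beta-catenin pathway, 12 rose and 0 fell, while Tcf7l2 itself was lower. The list mixes components, inhibitors and targets of the pathway with relatives of Tcf7l2. Of all tested genes 14.3% rose, and the median of the 22 was 0.22. Ctnnb1, which encodes beta-catenin, rose by 0.16 (SE 0.02) and Apc, which promotes its breakdown, by 0.27 (SE 0.02). Daam2, a Wnt effector, rose by 0.34 (SE 0.04) and Apcdd1, which encodes a membrane-bound Wnt inhibitor, by 0.29 (SE 0.04). Axin2, a standard target of the pathway that was named after its value was seen, went from 47.3 and 43.7 CPM to 56.2 and 56.9 CPM and rose by 0.32 (SE 0.06). With a preset coefficient of variation the calls for all 5 of these genes were lost, and with limma on log2(TPM + 1) those for Ctnnb1, Daam2, Apcdd1 and Axin2. The count of rises was 7 with DESeq2, 1 with limma on log2(TPM + 1) and 1 with a preset coefficient of variation. Over all 16751 tested genes 1506, 666 and 703 rose, in the same order. With limma and with the preset coefficient of variation the list thus held no clear excess of rises over all genes. Without Dor WT replicate 2 the median of the 22 was 0.17. The median was above 0 in all 15 alternatives. Markers of some other cells rose by amounts of the same order: the astrocyte markers as given above, and all 5 fibroblast and meningeal markers, with a median of 0.28. The latter summed to 1627 and 1613 TPM in the Dor WT libraries against 1917 and 1939 TPM in the cKO libraries, and were called in 3 of 5 with limma on log2(TPM + 1) and in 0 of 5 with a preset coefficient of variation. Other cell types did not rise as a whole. Of 5 microglia markers 2 rose and 1 fell, with a median of -0.009. Of 4 endothelial markers 2 rose and 0 fell (median 0.17), and of 6 neuron markers 1 rose and 1 fell (median -0.06). The part of any of these cells in the Wnt values was not tested.

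**Figure D5:**
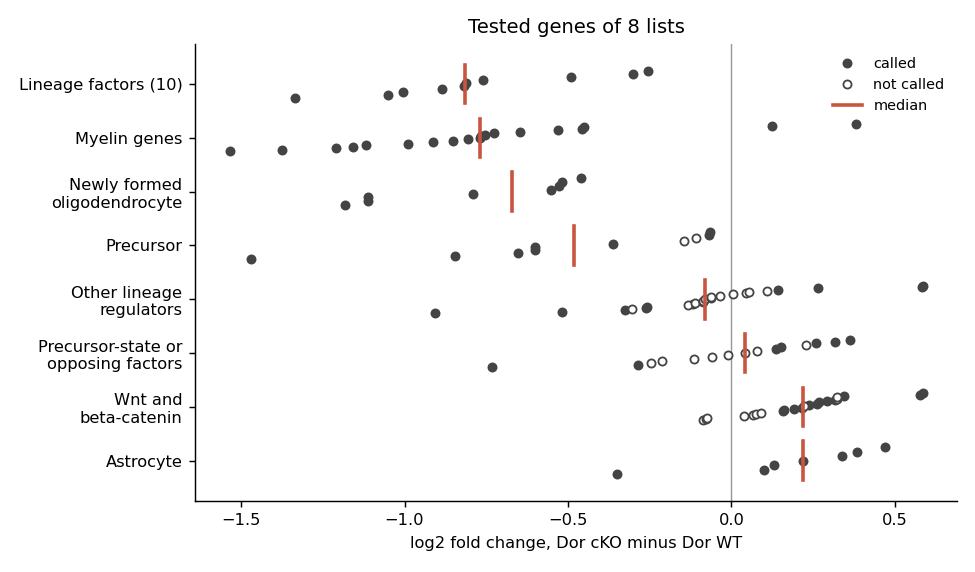
Log2 fold change (Dor cKO minus Dor WT) of each tested gene in the list of 10 lineage factors and in 7 other lists, filled where called by edgeR at an adjusted p under 0.05 and open where not, with the median of each list in red. The 10 lineage factors, the 8 newly formed oligodendrocyte genes and 17 of the 19 myelin genes lie below 0 and are called, while most Wnt and astrocyte genes lie above 0.

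By profile over the 4 libraries, the tested genes outside the list nearest to the mean of the 10, among 11555 with a mean of at least 5 TPM, were Cnp, Sema5a, Mag, Lingo2 and Dock10. The measure was the Euclidean distance between centred log2 CPM values, which was 0.0159 for Cnp, 0.0212 for Sema5a, 0.0217 for Mag, 0.0226 for Lingo2 and 0.0229 for Dock10. Cnp and Mag encode myelin proteins and are on the list above. Cnp was 2782 and 2764 CPM in the Dor WT libraries against 1659 and 1628 CPM in the cKO libraries. The 5 genes had log2 fold changes between -0.78 and -0.75, beside a median of -0.82 over the lineage factors. This closeness follows from the choice of genes by profile and is not a separate result.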

How the data were processed

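RNA from 4 mouse optic nerve libraries was compared, 2 per group, grouped by their titles. Tools in the submitters' processing notes are STAR 2.7.9a, RSEM 1.3.1 and Trimmomatic 0.36, with genome GRCm38 and no annotation release named. Per the file headers, the authors deposited RSEM gene tables, from which the expected count (estimated reads per gene), the TPM and the weighted length were used. Symbols from GENCODE M21 matched 55141 of 55401 identifiers.

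Expected counts were rounded. After filterByExpr (minimum count 10, total 15), 16751 genes were scaled by TMM and tested with edgeR 4.0.16 (quasi-likelihood, robust, group only), with Benjamini-Hochberg adjustment over all of them and calls at an adjusted p under 0.05. The SE is the fold change divided by the square root of F. The common coefficient of variation was 0.0348. Steps were tested on simulated data. Alternatives used DESeq2 1.42.0, limma 3.58.1 and others given in the closing section.

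Members and lists were chosen with earlier results of these data known. Named genes are the members, up to 4 genes per list by mean CPM with called ones first, the 5 most alike in profile and Trp53inp2; others are marked. Some genes of these lists are not reported here. No protein sequences were used here.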

Additional observations from a re-analysis of the deposited data

How the results depend on the processing

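All 10 genes kept their direction in each of 15 alternatives. Of 150 values, 138 kept their side of the threshold, and the other 12 lost the call: 6 for Zfp536, 4 for Tcf7l2 and 2 for St18. The median of the 10 ranged from -0.85 to -0.78. The number of the 10 called lower was 8 with DESeq2, 7 with limma on log2(TPM + 1) or log2(TPM + 0.1), 8 with the coefficient of variation set at 0.1, 9 without Dor WT replicate 1 or Dor cKO replicate 1, and 10 in the others. Over all genes, 2399 rose and 2248 fell. These counts were 1506 and 1380 with DESeq2, 666 and 722 with limma on log2(TPM + 1), 672 and 734 with log2(TPM + 0.1), and 703 and 891 with the coefficient of variation at 0.1. Same-numbered libraries did not deviate together (correlation -0.018 across genes), and with a replicate block 2562 rose, 2409 fell and all 10 remained lower, with a median of -0.82. With total count scaling 2161 rose and 2529 fell. The remaining alternatives were RLE scaling, no or another low-count filter, a non-robust fit and removal of a trend on transcript length. Depth limits St18 most, at 196 to 435 counts a library.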

Other observations

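Genes within 100000 bases of the 10 genes were also examined, a window chosen after the data were seen. Of 60 other genes there, 23 were tested, of which 3 fell, 2 rose and 18 did not pass. Over all tested genes 13.4% fell and 14.3% rose, so calls were not more frequent near the 10 genes. Gdf10, which encodes a secreted factor of the TGF-beta family and lies 29087 bases from Zfp488, was 110 and 110 CPM in the Dor WT libraries against 223 and 219 CPM in the cKO libraries. It rose by 1.01 (SE 0.03, edgeR adjusted p = 1.19e-19), while Zfp488 fell by 1.00.

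Next to Sox10, the noncoding gene Gm10863, which starts 801 bases away on the opposite strand, had 50 and 55 counts in the Dor WT libraries against 20 and 17 in the cKO libraries and fell by 1.60 (SE 0.37, adjusted p = 0.00126). Micall1, 18008 bases from Sox10, fell by 0.38 (SE 0.04). Fads1, a fatty acid desaturase gene 11395 bases from Myrf, rose by 0.09 (SE 0.02), from 443 and 440 CPM to 464 and 472 CPM. Calls of the neighbouring genes are those of the main edgeR fit alone. Nkx2-4, a homeobox gene 92101 bases from Nkx2-2, had 25 and 39 counts in Dor WT and 0 in both Dor cKO libraries. Nkx2-1, a hypothalamic gene of the same family on another chromosome, also fell by 1.94 (SE 0.26).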
